A study of Hevea brasiliensis with 2 samples.

Results

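The 8 unigenes described here, from the latex of rubber tree (Hevea brasiliensis), carry best hits to lipoxygenases, to the next enzymes of jasmonate synthesis, and to methyltransferases of jasmonate and salicylate. Of the lipoxygenase unigenes, only 1 has a hit to the class that serves jasmonate synthesis. They were a fixed list of 4 lipoxygenase (LOX) unigenes, 1 allene oxide synthase (AOS) unigene, 1 allene oxide cyclase (AOC) unigene and 2 methyltransferase unigenes, out of 51192 unigenes in the deposited table. The list was drawn up with the difference between the clones already known, so the reads of the members are given as a description and support nothing further. All 8 identifiers were found, as Unigene24544_All, Unigene34101_All, Unigene38638_All and Unigene46229_All (LOX), Unigene45784_All (AOS), Unigene46018_All (AOC), and Unigene40284_All and Unigene39621_All (methyltransferases), and their common ending is left out from here on. A unigene is a transcript sequence assembled from the reads without a genome, so it has no chromosome position, and several unigenes can be pieces of 1 gene.

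Latex, the cytoplasm of the laticifer cells, was taken from clone PR107 and from clone CATAS8-79, which the sample labels call RY8-79. The trees were untreated and had not been tapped before, and the labels give an age of 3 years for both clones, whereas the methods give an older age. The latex of several trees was pooled for each clone, and each pool was sequenced as 1 library. PR107 is an old primary clone, CATAS8-79 is a later hybrid that descends in part from PR107, and the study compared them because they differ in latex regeneration and in the duration of latex flow. Since each clone has a single library, differences could not be checked against replicates, and every comparison is between these 2 libraries and not between the clones. In such bulk samples fewer cells of a type cannot be told apart from less RNA per cell. In units of 1e+06, the reads counted on unigenes came to 6.87 in PR107 and 6.92 in CATAS8-79.

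Jasmonates are made from linolenic acid released from plastid lipids. A 13-lipoxygenase adds oxygen to the fatty acid, AOS turns the hydroperoxide into an allene oxide, and AOC closes the ring, all in the plastid. A reductase and rounds of beta-oxidation in the peroxisome then give jasmonic acid, which can be joined to isoleucine to make the active hormone or methylated to the volatile methyl jasmonate. Lipoxygenases of the other class, the 9-lipoxygenases, feed other oxylipins. In rubber tree, jasmonate is known for its role in the formation of secondary laticifers.

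The sequences of the assembled unigenes were not used here. For 2 of the 8 unigenes, Unigene38638 (LOX) and Unigene40284 (methyltransferase), the study designed quantitative PCR primers. These are shown because no other letters are given for the 2 unigenes, and they were not checked against the unigene sequences. Both unigenes had reads in only the CATAS8-79 library. The primers are taken as 5′ to 3′ and written in lower case, and no letters are singled out.
Unigene38638 forward: tctccatgcagcaatca
Unigene38638 reverse: gggaaatgccaacaaca
Unigene40284 forward: tcggtcaaacaccttact
Unigene40284 reverse: ctcaccttcctcgcacag
The Unigene38638 primers were 17 bases long with a GC content of 47.1% each. The Unigene40284 primers were 18 bases long, with a GC content of 44.4% in the forward primer and 61.1% in the reverse primer. The PCR measurements themselves were not analysed here.

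Of the 8 unigenes, 3 had a higher RPM (reads scaled to a library of 1e+06 counted reads) in PR107 and 5 a lower one. The LOX unigene with a 13-lipoxygenase hit, the AOS unigene and the AOC unigene were the 3 higher in PR107. The other 3 LOX unigenes and both methyltransferase unigenes were lower in PR107. A unigene was called when its reads, set against the library totals by Fisher's exact test (two-sided), gave an FDR of 0.001 or less over all 51192 unigenes and the log2 ratio of RPM (PR107 over CATAS8-79) was at least 1 in size. By this rule 7 of the 8 were called, against 12.8% of all unigenes. The 3 called higher in PR107 stand beside 7.14% of all unigenes, and the 4 called lower beside 5.7%. As the list was chosen on this contrast, nothing is read from these counts. The spread between libraries was also set to an assumed coefficient of variation (BCV) in the exact test of edgeR. At 0.2, 4 of the 8 were called (Unigene46229, Unigene45784, Unigene40284 and Unigene39621), and with 0.4 only Unigene40284 was. Of all 51192 unigenes, 1515 were called at 0.2 and 190 at 0.4.

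**Figure D1:**
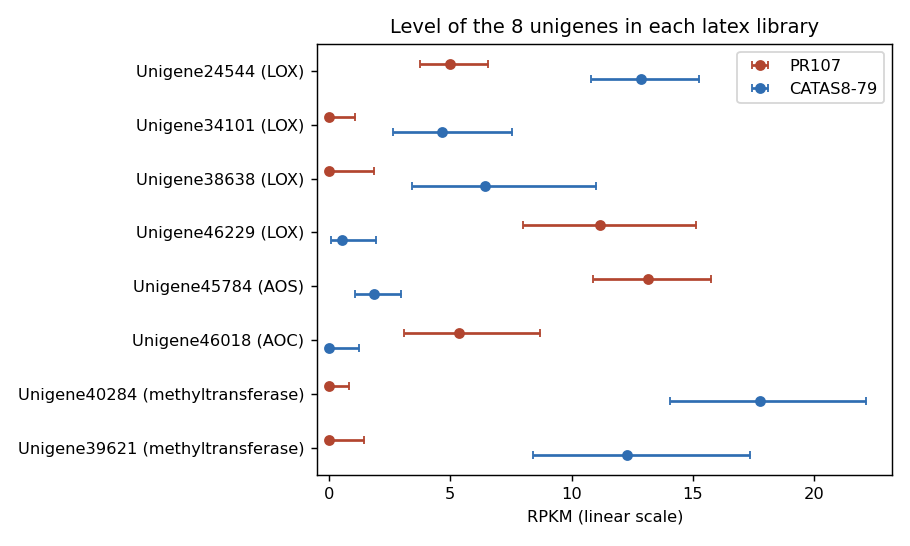
RPKM (reads per kilobase of unigene and per 1e+06 counted reads, horizontal linear axis) of each of the 8 unigenes in the PR107 library (red, upper point) and the CATAS8-79 library (blue, lower point). Points are the single library values and bars are 95% exact Poisson intervals, which cover counting error only. Unigene46229, Unigene45784 and Unigene46018 lie to the right in PR107, and the other 5 lie to the right in CATAS8-79.

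Unigene24544, the longest of the LOX unigenes at 1515 bp, had 52 reads in PR107 and 135 reads in CATAS8-79. Its RPKM was 5.0 in PR107 (95% exact Poisson interval 3.73 to 6.55) and 12.9 in CATAS8-79 (interval 10.8 to 15.2), and these intervals did not overlap. The log2 ratio was -1.37 (95% Clopper-Pearson interval -1.86 to -0.89), which is 2.58-fold lower in PR107. It was the only LOX unigene with more than 3 reads in both libraries. Its best Swissprot hit is Lipoxygenase A of tomato, a 9-lipoxygenase of the fruit, and its best Nr hit is a lipoxygenase of hazel. All intervals given here cover counting error only, since PCR copies were not told apart.

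Unigene34101 (498 bp) has the same best Nr and Swissprot hits as Unigene24544, so both may be parts of 1 gene or of close copies, and the split of reads between them is uncertain. It had 0 reads in PR107 and 16 reads in CATAS8-79. With a floor of 3 reads in place of the 0, it was 5.29-fold lower in PR107. This floor value is not a lower limit, since the Clopper-Pearson interval of the log2 ratio reaches up to -1.94. The RPKM of Unigene34101 in CATAS8-79 was 4.64 (interval 2.65 to 7.54). In PR107 a count of 0 allows an RPKM of up to 1.08 by the Poisson interval. Summed, Unigene24544 and Unigene34101 had 52 reads in PR107 and 151 reads in CATAS8-79, a log2 ratio of -1.53 (interval -2.01 to -1.06).

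Unigene38638 was the shortest of the 8 at 292 bp. It had 0 reads in PR107 and 13 reads in CATAS8-79, and it was the 1 member not called. At the floor it was 4.30-fold lower in PR107, with a log2 ratio interval up to -1.60. It was called under TMM scaling, under median-ratio scaling and when unigenes under 10 reads were left out. Its RPKM was listed at 0 in PR107 and at 6.43 in CATAS8-79 (interval 3.43 to 11.0). The best hits are Lipoxygenase 1 of potato, a 9-lipoxygenase of the tuber, and a bacterial-induced lipoxygenase of cotton.

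Unigene46229 (535 bp) went the other way. It had 41 reads in PR107 and 2 reads in CATAS8-79, a log2 ratio of 4.37 (interval 2.42 to 7.46). Its RPKM was 11.2 in PR107 (interval 8.01 to 15.1) and 0.540 in CATAS8-79 (interval 0.0654 to 1.95). The best Nr hit is a 13-lipoxygenase of potato, and the best Swissprot hit is the chloroplast Lipoxygenase 2 of Arabidopsis, which supplies jasmonate synthesis in wounded leaves of that plant.

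The makeup of the LOX signal therefore differed between the libraries while its total differed less. In PR107 the 4 LOX unigenes summed to 16.2 RPKM and in CATAS8-79 to 24.5 RPKM. Of the LOX reads, Unigene46229 took 44.1% in PR107 (41 of 93 reads, Clopper-Pearson interval 33.8 to 54.8%) and 1.2% in CATAS8-79 (2 of 166 reads, interval 0.146 to 4.28%). On the per-length scale, its share of the summed RPKM was 69.1% in PR107 and 2.21% in CATAS8-79. Unigene24544 took 55.9% of the LOX reads in PR107 and 81.3% in CATAS8-79. The remaining reads in CATAS8-79 came from Unigene34101 (9.64%) and Unigene38638 (7.83%), both with 0 of 93 LOX reads in PR107, where the Clopper-Pearson interval reaches up to 3.89%.

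**Figure D2:**
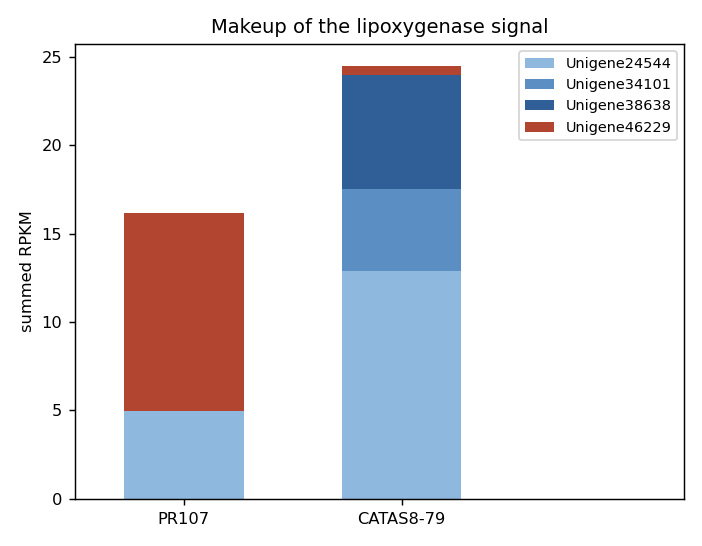
Summed RPKM (vertical axis, from 0) of the 4 lipoxygenase unigenes in PR107 (left bar) and CATAS8-79 (right bar), with each unigene as 1 segment and no error bars. Unigene46229 (red) makes up 69.1% of the 16.2 RPKM in PR107 and 2.21% of the 24.5 RPKM in CATAS8-79.

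Summed over reads, the 4 LOX unigenes had 93 reads in PR107 and 166 reads in CATAS8-79, a log2 ratio of -0.82 (interval -1.21 to -0.45). The direction of this sum rests on Unigene24544. Without it, the other 3 had a log2 ratio of 0.41. In PR107 this rests on the 41 reads of Unigene46229 alone. In CATAS8-79 it rests on 2 reads of Unigene46229, 16 of Unigene34101 and 13 of Unigene38638. No interval was computed for this ratio, so no direction is read from it. Without Unigene46229, the 3 LOX unigenes with hits to 9-lipoxygenases or to lipoxygenases of unnamed class had 52 reads in PR107 and 164 reads in CATAS8-79, a log2 ratio of -1.65 (interval -2.13 to -1.19).

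At the next step, Unigene45784 (1318 bp) had 119 reads in PR107 and 17 reads in CATAS8-79. The log2 ratio was 2.82 (interval 2.08 to 3.65), which is 7.05-fold higher in PR107. Its RPKM was 13.1 in PR107 (interval 10.9 to 15.7), the highest of the 8 there, and 1.86 in CATAS8-79 (interval 1.09 to 2.98). The name AOS comes from its best Swissprot hit, the chloroplast allene oxide synthase of flax. Its best Nr hit is instead called a fatty acid hydroperoxide lyase of poplar. Hydroperoxide lyase belongs to the same family of cytochrome P450 enzymes as AOS and takes the same hydroperoxides to leaf aldehydes, so the assignment to AOS is not settled by the hits.

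Unigene46018 (434 bp) had 16 reads in PR107 and 0 reads in CATAS8-79, 5.37-fold higher in PR107 at the floor (log2 ratio interval from 1.96 upwards). Its RPKM was 5.37 in PR107 (interval 3.07 to 8.72), and the count of 0 in CATAS8-79 allows an RPKM of up to 1.23. The best Swissprot hit is the chloroplast Allene oxide cyclase 3 of Arabidopsis, and the best Nr hit is mangrin of the mangrove Bruguiera sexangula. AOS and AOC together had 135 reads in PR107 and 17 reads in CATAS8-79, a log2 ratio of 3.00 (interval 2.27 to 3.82). With Unigene46229 added, a grouping made after the values were seen, the 3 unigenes with hits to chloroplast enzymes had 176 reads in PR107 and 19 reads in CATAS8-79, a log2 ratio of 3.22 (interval 2.54 to 3.99).

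Both methyltransferase unigenes had reads in only the CATAS8-79 library. Unigene40284 (643 bp) had 0 reads in PR107 and 79 reads in CATAS8-79, 26.1-fold lower in PR107 at the floor (log2 ratio interval up to -4.38). Its RPKM of 17.8 in CATAS8-79 (interval 14.1 to 22.1) was the highest of the 8 in that library, and the count of 0 in PR107 allows up to 0.835. Unigene39621 (376 bp) had 0 reads in PR107 and 32 reads in CATAS8-79, with an RPKM of 12.3 in CATAS8-79 (interval 8.41 to 17.4). It was 10.6-fold lower in PR107 at the floor (log2 ratio interval up to -3.02). Together the methyltransferase unigenes had 0 reads in PR107 and 111 reads in CATAS8-79, 36.7-fold lower in PR107 at the floor (log2 ratio interval up to -4.88).

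The substrate of these methyltransferases is not fixed by the hits. In Swissprot, the best hit of Unigene40284 is the jasmonate O-methyltransferase of Chinese cabbage, and that of Unigene39621 is the jasmonate O-methyltransferase of Arabidopsis. In Nr, the best hit of Unigene40284 is a salicylic acid carboxyl methyltransferase of wintersweet, and that of Unigene39621 is a salicylic acid methyl transferase-like protein of soybean. Enzymes of this family methylate jasmonic, salicylic or benzoic acid and are close to each other in sequence, so that reads can also be split among copies.

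Reads of 0 in one library were found for 5 of the 8 unigenes, against 7.01% of all unigenes. In PR107 the count was 4 of the 8 against 3.67% of all, and in CATAS8-79 it was 1 of the 8 against 3.35%. The list was chosen on this contrast, and nothing is read from these counts either. Of the 1877 unigenes with 0 reads in PR107, the median had 5 reads in CATAS8-79, and 51 had at least the 79 reads of Unigene40284. At least as many reads as Unigene39621 were found for 126 of them, as Unigene34101 for 262 and as Unigene38638 for 338. In the other direction, 1714 unigenes had 0 reads in CATAS8-79, and 248 of them had at least the 16 reads of Unigene46018 in PR107.

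The 8 unigenes were of low to middling level. The RPKM of Unigene45784 in PR107 was above that of 51.1% of all unigenes, and those of Unigene46229, Unigene46018 and Unigene24544 were above 47.1%, 29% and 27.4%. In CATAS8-79, Unigene40284 was above 59.2% of all unigenes, Unigene24544 above 52.4% and Unigene39621 above 51.3%. Unigene38638 and Unigene34101 were above 35.5% and 27.7% in CATAS8-79, and Unigene45784 and Unigene46229 above 12.4% and 4.44%. The median RPKM of all unigenes was 12.5 in PR107 and 11.6 in CATAS8-79. With zeros set to the floor of 3 reads, the median log2 ratio was -1.73 over the 8 unigenes and 0.01 over all unigenes. The 8 were divided, 5 lower and 3 higher in PR107, and the list was chosen on this contrast, so nothing is read from this median. The lengths of the 8 ran from 292 to 1515 bp, and 7 were longer than the median unigene of 364 bp.

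The direction of the members went with their unigene number, which comes from the assembly. Below number 29000, the RPM was higher in PR107 for 52.0% of 28999 unigenes. Reads of 0 were rare there, with 3 unigenes in PR107 and 3 in CATAS8-79. From number 30000 up to 40000, 25.6% were higher in PR107, 16.8% had 0 reads in PR107 and 0.529% had 0 reads in CATAS8-79. From number 41000 upwards, 82.7% were higher in PR107, 1.27% had 0 reads in PR107 and 14.9% had 0 reads in CATAS8-79. Unigene24544 was the only member numbered below 29000. Unigene34101, Unigene38638 and Unigene39621 lie in the range from 30000 and were lower in PR107. Unigene45784, Unigene46018 and Unigene46229 lie past 41000 and were higher in PR107.

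Near 7 of the 8 members, all but Unigene24544, most called unigenes had the same direction as the member. In the bins of 1000 numbers around Unigene34101, Unigene38638 and Unigene39621, 88.6%, 73.5% and 89.7% of the called unigenes were lower in PR107. Unigene40284 lies between these ranges, and in its bin of 500 numbers (40000 to 40499) 93.0% of 157 called unigenes were lower in PR107. Around Unigene45784, 96.4% of the called unigenes were higher in PR107, and around Unigene46018 and Unigene46229, which share a bin, 93.2% were. In the bin of Unigene24544, called unigenes were divided, with 50.9% higher in PR107 and 49.1% lower. The part of the unigene number in the differences of the members was not tested.

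**Figure D3:**
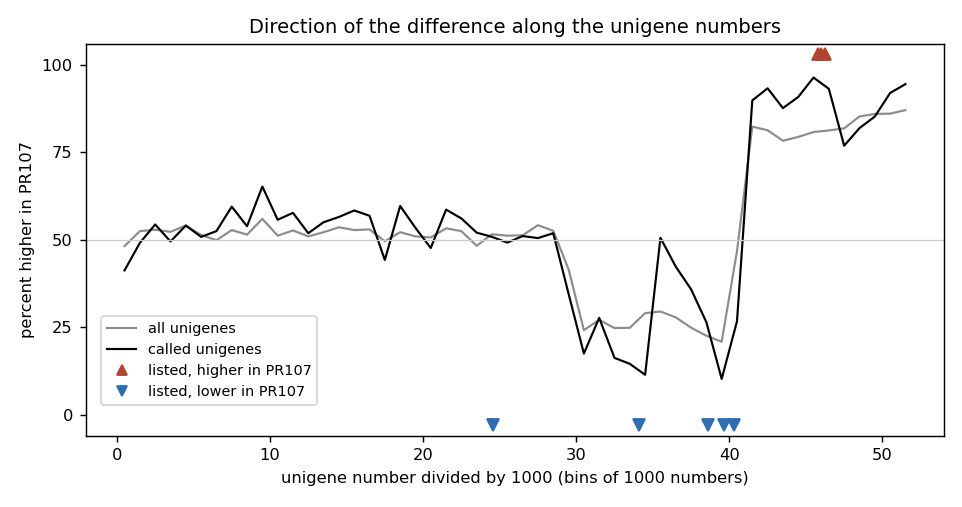
Percent of unigenes with a higher RPM in PR107 (vertical axis) by unigene number divided by 1000 (horizontal axis, bins of 1000 numbers), for all unigenes (grey) and called unigenes (black). Triangles mark the numbers of the 8 unigenes, pointing up (red) where higher in PR107 and down (blue) where lower, and 7 of the 8 lie past number 30000, where the grey line leaves 50%.

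Other steps of jasmonate metabolism were searched by word in the deposited best hits, which are given only for the 6726 unigenes the authors called. The search therefore holds no unigene that did not differ, and its counts cannot be set against uncalled unigenes. Of 19 steps searched, 6 had no unigene, among them the jasmonate amido synthetase, the receptor COI1 and the factor MYC2. Beside the 8 members, 14 unigenes were found, and all 14 were called, 4 higher and 10 lower in PR107. Of all unigenes, 7.14% were called higher and 5.7% lower. Of the 14, 9 are numbered below 29000. The other 5 had the direction of most unigenes in their range, with Unigene34407, Unigene33018, Unigene38882 and Unigene33126 (from 30000 up to 40000) lower in PR107 and Unigene43158 (past 41000) higher, and the part of the number in these differences was not tested either. The median log2 ratio was -1.15 over the 14 and 1.12 over all called unigenes, with zeros at the floor. Every called unigene has a ratio of at least 1 in size. These medians therefore mainly show which direction holds more unigenes, 3657 higher against 2920 lower in PR107 over all called. At an assumed BCV of 0.2, 2 of the 14 were called (Unigene6618 and Unigene33126), and with 0.4 the count was 0. Over all 51192 unigenes, the counts were 1515 and 190.

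The 6 unigenes for substrate release and for the steps after AOC were all lower in PR107. The best Nr hit of Unigene34407 is a galactolipase or phospholipase of Arabidopsis, and its best Swissprot hit is calcium-independent phospholipase A2-gamma of mouse. Unigene34407 had 32 reads in PR107 and 116 reads in CATAS8-79, a log2 ratio of -1.85 (interval -2.46 to -1.27). Of the phospholipase A1 unigenes, which cut fatty acids from lipids, Unigene768 had 55 reads in PR107 and 123 in CATAS8-79, and Unigene33018 had 3 in PR107 and 31 in CATAS8-79. These lipases are annotated by family only, and none is named for a role in jasmonate synthesis.

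Unigene15932, whose best Nr hit is the 12-oxophytodienoate reductase of H. brasiliensis itself, had 92 reads in PR107 and 194 in CATAS8-79, a log2 ratio of -1.07 (interval -1.44 to -0.70). This enzyme reduces the product of AOC in the peroxisome. Unigene4612, with a hit to acyl-CoA oxidase ACX3, which starts beta-oxidation, had 18 reads in PR107 and 52 in CATAS8-79, a log2 ratio of -1.52 (interval -2.38 to -0.72). Unigene22901, with a hit to the peroxisomal multifunctional protein AIM1 of the following beta-oxidation steps, had 30 reads in PR107 and 67 in CATAS8-79, a log2 ratio of -1.15 (interval -1.82 to -0.51). Beta-oxidation also serves fatty acids in general. All 3 are numbered below 29000, as is Unigene768, whereas the lipase unigenes Unigene34407 and Unigene33018 lie in the range from 30000 up to 40000, where most unigenes were lower in PR107. The reductase, oxidase and multifunctional protein unigenes, which follow AOC, thus differed in the opposite direction to the AOS and AOC unigenes. The AOS and AOC unigenes lie past number 41000, where most unigenes were higher in PR107, and the part of the number was not tested.

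Both unigenes of the CYP94 family of cytochrome P450 enzymes were higher in PR107. Unigene17835 had 1047 reads in PR107 and 414 in CATAS8-79, a log2 ratio of 1.35 (interval 1.18 to 1.52). Unigene43158 had 17 reads in PR107 and 0 in CATAS8-79, 5.71-fold higher in PR107 at the floor (log2 ratio interval from 2.06 upwards). The best Swissprot hit of both is CYP94A1 of vetch, a fatty acid hydroxylase, whereas the members of this family that inactivate the hormone in Arabidopsis belong to other subfamilies.

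Of the TIFY unigenes, a family that holds the JAZ repressors of the jasmonate response, 2 were lower in PR107 and 1 was higher. Unigene10514, a hit to JAZ2 of tobacco, had 123 reads in PR107 and 275 in CATAS8-79, a log2 ratio of -1.15 (interval -1.47 to -0.84). Unigene38882, a hit to JAZ8 of Arabidopsis, had 3 reads in PR107 and 33 in CATAS8-79, a log2 ratio of -3.45 (interval -5.80 to -1.78). Unigene21172 had 64 reads in PR107 and 16 in CATAS8-79 and has a hit to PPD2, a TIFY protein known for leaf growth.

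The Ninja family, which links JAZ proteins to co-repressors, had 3 unigenes. Unigene7546, a hit to the Ninja-family protein mc410 of tobacco, had 109 reads in PR107 and 240 in CATAS8-79, a log2 ratio of -1.13 (interval -1.47 to -0.80). Unigene6618 (AFP3) had 193 reads in PR107 and 41 in CATAS8-79, and Unigene33126 (AFP1) had 0 in PR107 and 24 in CATAS8-79. The AFP members are known in Arabidopsis for binding a factor of the abscisic acid response. The word for methylesterases found 1 further unigene, Unigene16741, a pectin enzyme, which was left out.

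**Figure D4:**
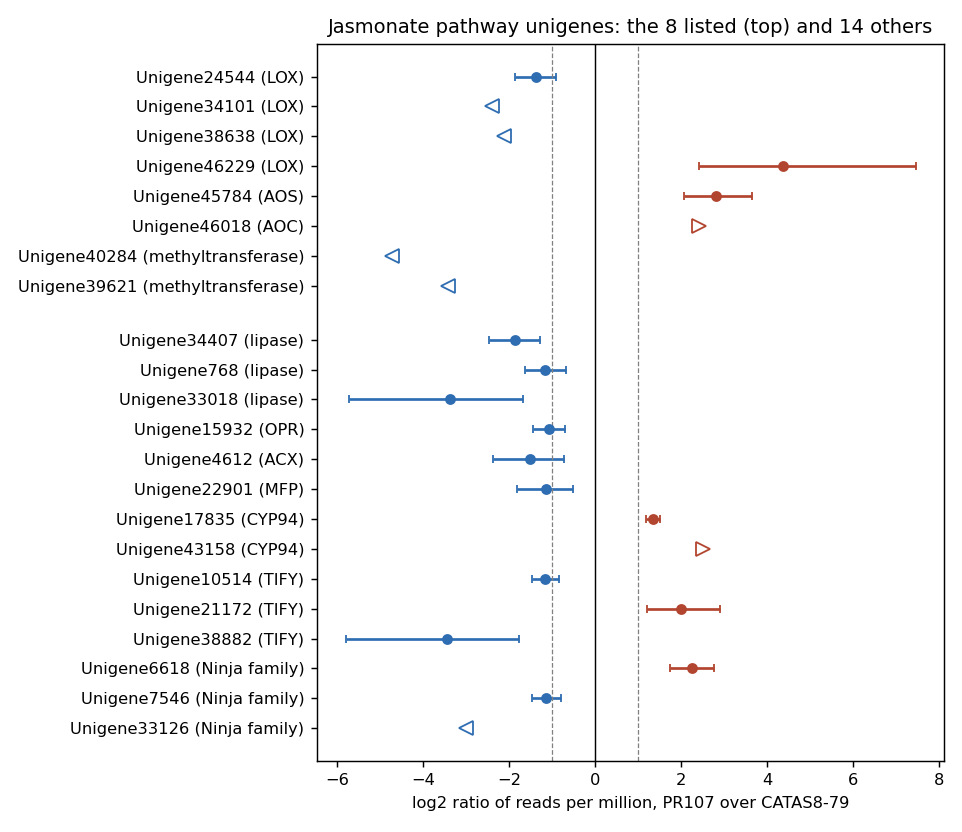
Log2 ratio of RPM, PR107 over CATAS8-79 (horizontal axis), for the 8 listed unigenes (upper block) and the 14 others found by search words (lower block), red where higher in PR107 and blue where lower. Points have 95% Clopper-Pearson intervals, and dashed lines mark a ratio of 1 in size. Open triangles are ratios at the floor of 3 reads for unigenes with 0 reads in one library. These floor values are not limits. The 6 lipase, OPR, ACX and MFP unigenes lie to the left, and both CYP94 unigenes to the right.

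Markers of latex and of other cells were also sought in the best hits, which cover only the 6726 unigenes the authors called. A marker that did not differ therefore could not be found. Of 10 searches, 5 found a unigene and none of these was at 0 in either library. The small rubber particle protein, a marker of latex, was found as Unigene823 with 274 reads in PR107 and 51 in CATAS8-79. The search words found no rubber elongation factor, hevein, cis-prenyltransferase or rubber transferase. The paper, however, reports a unigene for Hevea rubber transferase as up-regulated in CATAS8-79, which these words missed. For green tissue, the chlorophyll a-b binding protein had 38 reads in PR107 and 147 in CATAS8-79, and the Rubisco small chain had 256 in PR107 and 71 in CATAS8-79. For wood, 4 cellulose synthase A unigenes had 301 reads in PR107 and 241 in CATAS8-79, with 2 of them called higher in PR107 and 2 called lower. For phloem, 2 phloem protein 2 unigenes had 83 in PR107 and 20 in CATAS8-79. The markers found, all among called unigenes, went in both directions, and their part in the differences of the 8 unigenes was not tested.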

How the data were processed

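The authors cleaned the reads, assembled them de novo with SOAPdenovo and merged the assemblies into unigenes. The deposited counts are raw reads per unigene. The deposited RPKM are recovered from reads, length in bp and the sum of reads of a library (largest gap 5.0e-05), whereas the methods name another unit. Column names point to read placement with SOAP, whose version is not given in the sources used here. The authors' own comparison columns (log2 ratio, p-value and FDR) were not used. A second table gave best Nr and Swissprot hits for 6726 unigenes.

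Calls rest on Fisher's exact test (two-sided, scipy 1.17.1), with p-values adjusted by Benjamini-Hochberg over the 51192 unigenes, an FDR of 0.001 or less and a log2 ratio of at least 1 in size. The test was checked on simulated counts with counting error only. That check does not bear on spread between libraries, which was left out of the simulation. A model that estimates spread from replicates could not be fitted to 1 library each, so edgeR 4.0.16 was run with assumed BCV only, and for TMM scaling, and DESeq2 1.42.0 gave median-ratio factors. A library with 0 reads was set to a floor of 3 reads, an RPM of 0.437 in PR107 and 0.434 in CATAS8-79. Values with 1 to 3 reads were given by their ratio, whereas a ratio at the floor had been planned. The members, search words and lists were chosen with earlier results of these data known. Named unigenes were the 8 members, every unigene found by the search words, and the marker unigenes. The sum that adds Unigene46229 to AOS and AOC and the one over the other 3 LOX unigenes were chosen after seeing the data. None of the unigene identifiers was in the RefSeq table given (50196 genes), so no RefSeq sequence was printed. Other versions were R 4.3.3, Python 3.11.15, pandas 2.3.3, numpy 2.4.6 and matplotlib 3.10.9.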

Additional observations from a re-analysis of the deposited data

How the results depend on the processing

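TMM scaling (edgeR), median-ratio scaling (DESeq2) and a minimum of 10 reads each called all 8 members, and a log2 threshold of 2 called 6. Of all unigenes, TMM scaling called 6558, median-ratio scaling 6579 and the minimum of 10 reads 6722. An adjusted p of 0.01 or less, chosen after seeing the data, also called all 8, and was not counted over all unigenes. The exact test of edgeR called 4 members at an assumed BCV of 0.2 and 1 at 0.4, with 1515 and 190 of all unigenes, against 6577. At a log2 threshold of 2, 2775 of all unigenes and 6 of the 14 other pathway unigenes were called, and at the assumed BCV of 0.2 and 0.4, 2 and 0 of the 14. All 8 members kept their direction under both scalings. The LOX sum, -0.82, changed sign to 0.41 without Unigene24544, which was lower in PR107. No interval was computed for 0.41, so no direction is read from it. Without Unigene46229, which was higher in PR107, the sum moved to -1.65. Over the bins of the 3 members higher in PR107, the share of unigenes higher in PR107 was 81.1%, and 76.2% under TMM. Over the bins of the 4 lower members past number 30000 it was 29.6%, 26.8% under TMM and 23.0% in bins of 500, where the bin of Unigene40284 no longer crosses into the next range. No paired analysis was possible because each clone has 1 library, and none could be left out. Members with 0 reads in a library have no finite ratio, and theirs is given at the floor. Summing RPKM in place of reads gave no ratio for the methyltransferases, which have 0 reads in PR107, and a floor of 1 read does not bear on the LOX or the AOS and AOC sums, which have reads in both libraries.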
